A study of Mus musculus with 6 samples.

Results

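The 7 genes described here, Ms4a4a, Ms4a4b, Ms4a4c, Ms4a6b, Ms4a6c, Ms4a6d and Ms4a7, are members of the MS4A family expressed outside B cells, and were taken by their symbols from the 57180 genes of the deposited table. RNA was sequenced from NK cells (CD3- NK1.1+) that were sorted by surface CD36 from livers of C57BL/6J male mice, 6 to 8 weeks old, in which fibrosis had been induced by CCl4. CCl4 was injected 2 times per week for 4 weeks and the livers were taken 48 h after the last injection, so CD36+ NK and CD36- NK cells share the genotype, the treatment and the time, and no untreated liver was sequenced. Each fraction had 3 libraries, called replicates 1 to 3 by their titles. How many animals entered a library, and whether same-numbered libraries came from the same animals, is not stated. Levels are in CPM, which is the count divided by the TMM-adjusted library size and set to a fixed total, and the quasi-likelihood test of edgeR was applied to the 14761 genes that passed a filter on low counts. A gene was called when its adjusted p-value was below 0.05 and its fold change above 2.

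MS4A proteins cross the membrane 4 times and sit in plasma membrane and endosomal complexes, where they modulate signalling by partner receptors. The best known member is Ms4a1, which encodes the B cell antigen CD20. Ms4a4b is a gene of T and NK lymphocytes, whose product associates with the costimulatory receptor GITR. Ms4a4a, Ms4a6c, Ms4a6d and Ms4a7 are expressed mainly by monocytes and macrophages, and Ms4a4c and Ms4a6b by both myeloid cells and lymphocytes.

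The libraries held 10292480 to 13787189 counts. Cd36 lay between 110 and 263 CPM in the libraries titled CD36+ and between 14.3 and 31.7 CPM in those titled CD36-, although the names of the sequencing libraries write the sign of CD36 differently from the titles. NK marker genes were present in both fractions but all 10 were lower in CD36+ NK, with a summed level of 859 to 1039 CPM against 4676 to 5977 CPM. Markers of other cell types were also present. The summed level of B cell markers was 2997 to 3381 CPM in CD36+ NK and 2087 to 2420 CPM in CD36- NK, and that of macrophage and Kupffer cell markers was 6622 to 9291 and 2422 to 5744 CPM (2316 to 5805 and 369 to 1414 CPM without Lyz2). CD36+ NK replicate 1 stood apart in T cell markers, at 259.5 CPM against 25.2 to 44.2 CPM in the other 5 libraries. In bulk RNA of this kind, fewer cells of a type and less RNA per cell cannot be told apart.

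Among the 7 genes, Ms4a4b alone was called, and it was lower in CD36+ NK. Ms4a4b (ENSMUSG00000056290, chromosome 19, plus strand, from 11420917 to 11444419 in the coordinates of the table, whose build is not named) was at 150, 108 and 87.0 CPM in CD36+ NK replicates 1 to 3 and at 442, 492 and 598 CPM in CD36- NK replicates 1 to 3. The lowest CD36- NK library was thus well above the highest CD36+ NK library. The means were 115 ± 32.2 (SD, n = 3) and 511 ± 79.8 CPM (SD, n = 3), and the log2 fold change was -2.15 (95% interval from -2.67 to -1.63, edgeR adjusted p = 0.00273). This is a level 4.44 times higher in CD36- NK, with a 95% interval from 3.10 to 6.37. All 12 alternative fits also called Ms4a4b lower, with log2 fold changes from -2.40 to -1.98.

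The other 6 genes were not called, so 1 of 7 passed the threshold, where 5.96% of all tested genes did (2.98% lower and 2.98% higher in CD36+ NK). Libraries of the fractions did not overlap for Ms4a4b and Ms4a7, 2 of the 7 genes, as for 32.8% of all tested genes. The median log2 fold change of the 7 genes was 0.34, against 0.01 over all tested genes, and hides values from -2.15 to 2.09.

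**Figure D1:**
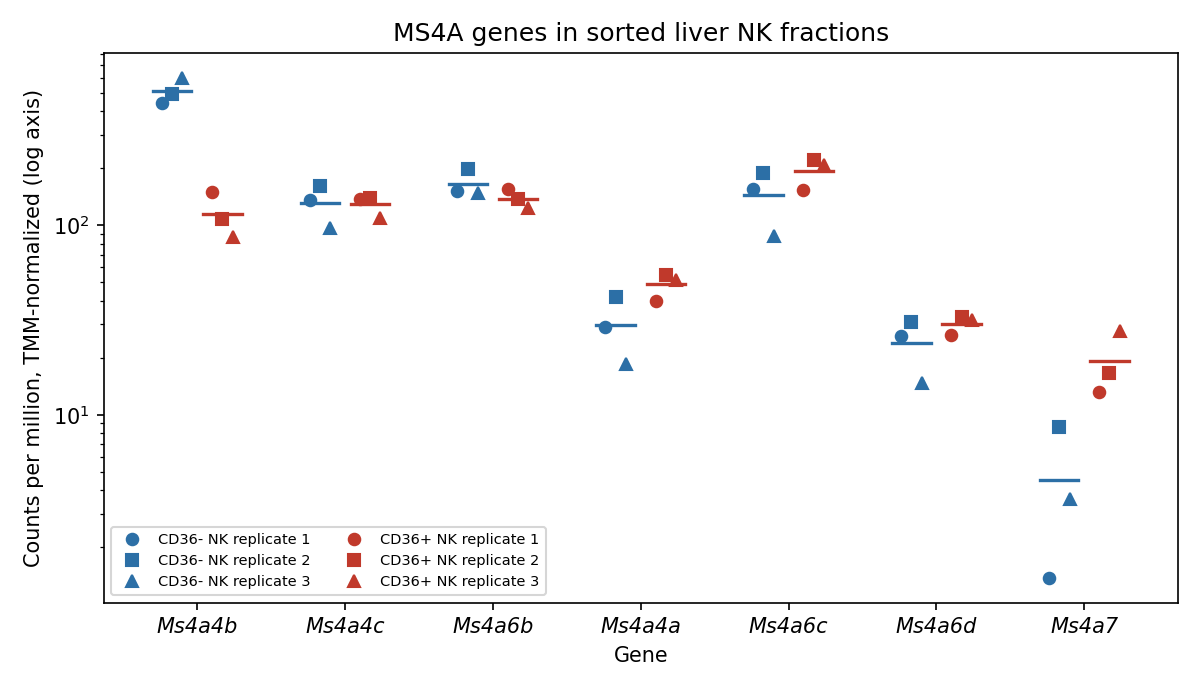
TMM-normalized CPM of the 7 MS4A genes on a log axis, with 1 point per library (circles, squares and triangles for replicates 1, 2 and 3) and a bar at the mean of each fraction. Ms4a4b lay at 87.0 to 150 CPM in CD36+ NK and at 442 to 598 CPM in CD36- NK, Ms4a7 was higher in CD36+ NK without overlap, and the other 5 genes overlapped between the fractions.

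Ms4a4c lies next to Ms4a4b in the cluster, and was not called. Ms4a4c (ENSMUSG00000024675, plus strand, from 11382134 to 11404610), a gene induced by interferons, was at 138, 139 and 110 CPM in CD36+ NK replicates 1 to 3 and at 136, 160 and 96.7 CPM in CD36- NK replicates 1 to 3. The CD36+ NK libraries lay inside the range of the CD36- NK libraries. Its log2 fold change was -0.02 (standard error 0.193, edgeR adjusted p = 0.958), and the 95% interval from -0.48 to 0.43 leaves out a 2-fold change in either direction. Within each library, Ms4a4b had 0.772 to 1.09 counts per count of Ms4a4c in the CD36+ libraries, against 3.07 to 6.19 in the CD36- libraries.

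The promoters of this pair are shown because these neighbours carry alike sequence before their starts, while Ms4a4b was called and Ms4a4c was not. Each line gives the 250 bases before the RefSeq start, 5′ to 3′ on the gene's strand in GRCm38.p6, whose coordinates cannot be exchanged with those of the table. Ms4a4b is at chr19:11443308-11443557 and Ms4a4c at chr19:11407411-11407660, both on the plus strand. Capitals mark stretches of at least 12 bases that occur in both, which cover 92 of the 250 bases of each.
Ms4a4b: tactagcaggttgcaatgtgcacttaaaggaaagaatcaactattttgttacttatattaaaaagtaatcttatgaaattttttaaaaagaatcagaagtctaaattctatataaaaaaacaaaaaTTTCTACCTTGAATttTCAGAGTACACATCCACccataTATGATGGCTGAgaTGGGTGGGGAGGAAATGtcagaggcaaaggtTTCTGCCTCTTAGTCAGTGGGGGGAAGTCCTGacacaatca
Ms4a4c: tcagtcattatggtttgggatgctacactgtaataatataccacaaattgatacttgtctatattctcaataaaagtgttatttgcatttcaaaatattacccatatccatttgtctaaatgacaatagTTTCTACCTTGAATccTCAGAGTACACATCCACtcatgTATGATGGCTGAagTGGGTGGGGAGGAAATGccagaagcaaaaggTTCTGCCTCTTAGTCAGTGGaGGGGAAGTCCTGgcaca

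Ms4a6b and Ms4a6c form the other pair with shared promoter sequence, at chr19:11518309-11518558 and chr19:11469118-11469367 (GRCm38.p6, plus strand). Their shared stretches, again in capitals, cover 72 of 250 bases. Of the 20 pairs of promoter windows from different genes, these 2 pairs shared a stretch of 12 bases. RefSeq windows were found for 6 of the 7 genes, with 2 windows for Ms4a7 and none for Ms4a6d.
Ms4a6b: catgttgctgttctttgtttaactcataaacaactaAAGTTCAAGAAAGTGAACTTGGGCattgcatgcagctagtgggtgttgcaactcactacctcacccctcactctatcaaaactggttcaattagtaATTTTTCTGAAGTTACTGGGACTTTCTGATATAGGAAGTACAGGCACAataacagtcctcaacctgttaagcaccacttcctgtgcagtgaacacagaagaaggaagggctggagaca
Ms4a6c: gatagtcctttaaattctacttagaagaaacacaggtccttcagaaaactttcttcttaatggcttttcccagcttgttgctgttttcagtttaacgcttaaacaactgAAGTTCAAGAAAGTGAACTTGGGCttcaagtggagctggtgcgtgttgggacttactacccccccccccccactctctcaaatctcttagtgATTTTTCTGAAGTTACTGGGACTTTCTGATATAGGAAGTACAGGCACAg

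Motifs were searched on both strands of the windows from 250 bases before to 50 after each start. The letters GAAANNGAA, the core of an interferon response element, matched as GAAAGTGAA at 206 bases before the start of Ms4a6b and 133 bases before that of Ms4a6c, inside the first shared stretch. They also matched in each of the Ms4a7 windows, at 148 and 71 bases before the respective start. Of 32544 promoter windows, 8.53% held a match. The T-box letters GGTGTGA matched in 1 window, that of Ms4a7, on the opposite strand 38 bases before the start, where 3.95% of all windows matched. No member window held the PU.1 letters GAGGAAGT, which 3.11% of all windows held. Only these exact letters were counted, and not near matches such as TAGGAAGT in a shared stretch of Ms4a6b and Ms4a6c. These are matches of letters and not measured binding.

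Ms4a6b, like Ms4a4c a gene of both lymphoid and myeloid cells, was not called either. Ms4a6b (ENSMUSG00000024677, plus strand, from 11493876 to 11508620) was at 155, 137 and 123 CPM in CD36+ NK replicates 1 to 3 and at 152, 198 and 148 CPM in CD36- NK replicates 1 to 3. The fractions overlapped. Its log2 fold change was -0.26 (standard error 0.147, edgeR adjusted p = 0.318, 95% interval from -0.61 to 0.08). Per count of Ms4a6b, Ms4a4b had 0.710 to 0.966 counts in the CD36+ libraries, against 2.48 to 4.05 in the CD36- libraries.

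Of the 4 myeloid genes, Ms4a7 was furthest from the others. Ms4a7 (ENSMUSG00000024672, minus strand, from 11298403 to 11313510), a gene of mature macrophages, was at 13.3, 16.6 and 27.5 CPM in CD36+ NK replicates 1 to 3 and at 1.38, 8.58 and 3.61 CPM in CD36- NK replicates 1 to 3. Each CD36+ NK library was above each CD36- NK library, but the CD36- NK libraries differed widely among themselves, from 18 to 97 counts. The means were 19.1 ± 7.46 (SD, n = 3) and 4.52 ± 3.68 CPM (SD, n = 3), and the fitted log2 fold change was 2.09 (standard error 0.591). The edgeR adjusted p-value was 0.0677, and Ms4a7 was thus not called although its 95% interval ran from 0.70 to 3.48. It was called in 3 of 12 alternative fits, by DESeq2 (adjusted p = 0.00216), with the form of the library name as a batch term (edgeR adjusted p = 0.0337) and without CD36- NK replicate 2 (log2 fold change 2.95, edgeR adjusted p = 0.0176). The other 9 fits did not call it, and the smallest log2 fold change was 1.62, without CD36- NK replicate 1 (edgeR adjusted p = 0.117).

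Ms4a4a, Ms4a6c and Ms4a6d had higher means in CD36+ NK, none past the threshold. Ms4a4a (ENSMUSG00000101389, plus strand, from 11352887 to 11370154), whose product associates with the fungal receptor dectin-1 in macrophages, was at 39.9, 54.7 and 51.6 CPM in CD36+ NK replicates 1 to 3 and at 29.1, 41.7 and 18.6 CPM in CD36- NK replicates 1 to 3. The lowest CD36+ NK library lay just under the highest CD36- NK library. Its log2 fold change was 0.71 (standard error 0.281, edgeR adjusted p = 0.162, 95% interval from 0.05 to 1.37). Without CD36- NK replicate 2 it was 1.03 (edgeR adjusted p = 0.0384), past the threshold, and without CD36- NK replicate 3 it was 0.45 (edgeR adjusted p = 0.288).

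Ms4a6c (ENSMUSG00000079419, plus strand, from 11446730 to 11459556), a gene of inflammatory monocytes, was at 153, 220 and 209 CPM in CD36+ NK replicates 1 to 3 and at 156, 188 and 87.8 CPM in CD36- NK replicates 1 to 3. Ms4a6d (ENSMUSG00000024679, minus strand, from 11563968 to 11582213), whose product works with the macrophage receptor VSIG4, was at 26.3, 32.9 and 31.6 and at 26.1, 30.9 and 14.6 CPM in the same order. In both genes CD36- NK replicate 3 was the low library and the others overlapped. The log2 fold changes were 0.43 (95% interval from -0.22 to 1.08) for Ms4a6c and 0.34 (95% interval from -0.27 to 0.95) for Ms4a6d, with edgeR adjusted p-values of 0.382 and 0.472. Without CD36- NK replicate 3 they were 0.17 and 0.08, and without CD36- NK replicate 2 they were 0.67 and 0.57, not called either way.

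CD36- NK replicate 3 was also the lowest library in the summed macrophage and Kupffer markers (2422 CPM, against 5304 and 5744 in the other 2) and in the summed monocyte markers (1454 CPM, against 2432 and 2582). Ms4a6c amounted to 5.67% to 8.33% of the summed monocyte level in the CD36+ libraries and 6.04% to 7.28% in the CD36- libraries, which overlapped. Ms4a6d, at 0.975% to 1.26% and 1.01% to 1.20% of it, overlapped too, and so did Ms4a4a, at 1.48% to 2.06% and 1.195% to 1.62%. Against the same list Ms4a7 was higher in CD36+ NK without overlap, at 0.491% to 1.10% and 0.0569% to 0.332%. Ms4a4c, at 4.38% to 5.09% and 5.60% to 6.65%, and Ms4a6b, at 4.89% to 5.75% and 6.24% to 10.2%, were lower in CD36+ NK without overlap. Ace, a gene of the monocyte list, was at 465, 910 and 854 CPM in CD36+ NK replicates 1 to 3. In CD36- NK replicates 1 to 3 it was at 162, 276 and 106 CPM. The shares were not computed without Ace, and the separations of Ms4a4c and Ms4a6b may depend on it. The summed macrophage level depended on 1 gene, Lyz2 (lysozyme), which made up 37.5% to 65.0% of it in the CD36+ libraries and 75.4% to 89.5% in the CD36- libraries. With Lyz2, Ms4a7 was 0.200% to 0.296% of that level in the CD36+ libraries and 0.0261% to 0.149% in the CD36- libraries. Without Lyz2, an alternative chosen after seeing the data, it was 0.466% to 0.573% and 0.248% to 0.978%, which overlapped. Against the macrophage list the separation of Ms4a7 thus depended on Lyz2. Ms4a4a, at 0.556% to 0.716% and 0.548% to 0.766% with Lyz2, overlapped, whereas at 0.889% to 1.72% and 2.95% to 5.22% without it the gene was lower in CD36+ NK without overlap. Ms4a6c was 2.25% to 2.88% and 2.93% to 3.63% of the macrophage level with Lyz2 and 3.59% to 6.62% and 13.3% to 27.9% without it, lower in CD36+ NK both ways. Ms4a6d was likewise lower without overlap, at 0.544% to 1.14% and 2.19% to 4.68% without Lyz2. The part of these cells in the results was not tested.

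**Figure D2:**
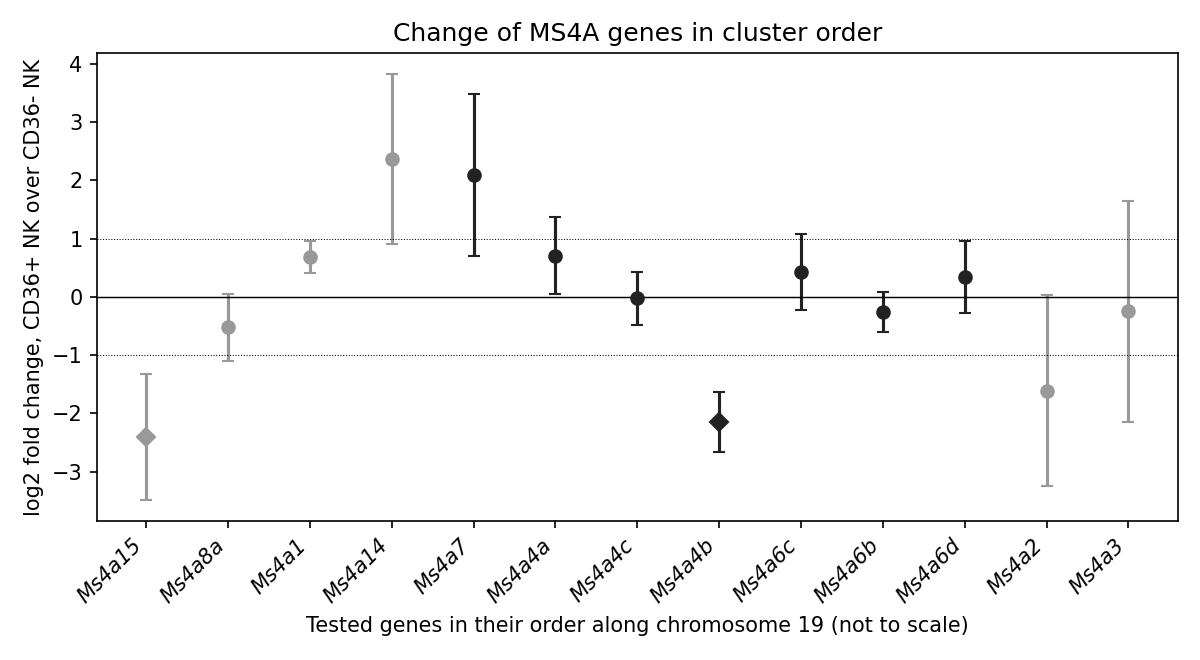
log2 fold changes (CD36+ NK over CD36- NK) of the 13 tested MS4A genes in their order along chromosome 19, with bars for 95% intervals, dotted lines at a 2-fold change, the 7 genes described here in black, other family genes in grey and called genes as diamonds. Ms4a4b, at -2.15, stands between neighbours at -0.02 and 0.43, and the adjacent genes Ms4a14 and Ms4a7 are at 2.36 and 2.09.

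The question of whether Ms4a4b departs from its paralogs was put to ratios within a library, which do not depend on scaling between libraries. The log2 ratio of Ms4a4b to each of the other 6 genes was lower in every CD36+ NK library than in every CD36- NK library. The 6 pairs share the count of Ms4a4b and are not independent of each other or of the change of Ms4a4b given above. The difference between the fractions was smallest for Ms4a6b, at -1.92, and largest for Ms4a7, at -4.54 (from -5.20 without CD36- NK replicate 2 to -3.98 without CD36- NK replicate 1). For Ms4a4c, Ms4a6d, Ms4a6c and Ms4a4a it was -2.18, -2.58, -2.66 and -2.95. Each of the 6 pairs gave p = 0.1 in an exact permutation test (two-sided, n = 3 against 3, and 0.1 after adjustment over the 6 pairs), which is the smallest p that this design allows. In counts, Ms4a4b exceeded Ms4a7 by 3.16 to 11.3 times in CD36+ NK and by 57.4 to 319 times in CD36- NK.

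**Figure D3:**
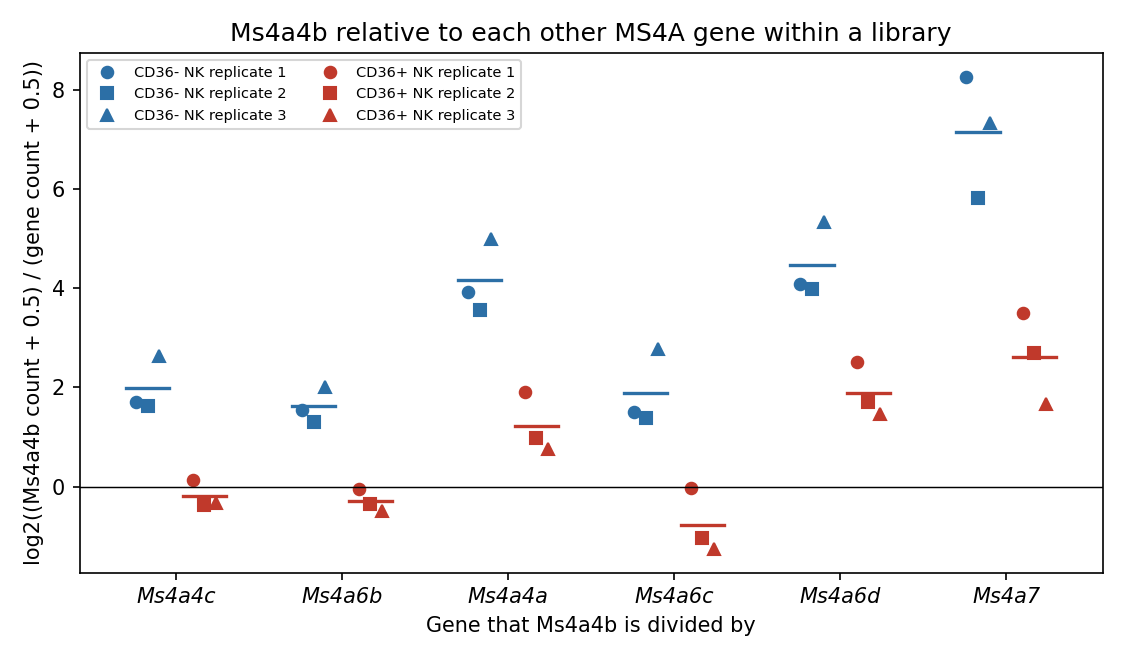
log2 ratio of the Ms4a4b count to the count of each other MS4A gene in the same library (0.5 added to both), with 1 point per library and a bar at the mean of each fraction. The fractions do not overlap in any of the 6 pairs, and the gap is widest for Ms4a7, with means of 2.62 in CD36+ NK and 7.16 in CD36- NK.

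Fragments from stretches that paralogs share cannot be assigned to 1 gene by sequence. Of the distinct 50-base stretches in GENCODE M21 transcripts, 8.19% of those of Ms4a4c also occurred in another gene of the family (Ms4a4b and Ms4a4d), as did 5.85% for Ms4a6c, 3.44% for Ms4a6b, 2.31% for Ms4a6d and 2.24% for Ms4a4b. Ms4a4a and Ms4a7 shared none within the family. How the counting placed fragments from the shared stretches is not given in the sources used here.

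Levels of different genes were compared per length, by the FPKM values that the authors deposited, which divide the fragments of a gene by its length and by the library total. In CD36+ NK, Ms4a6c was highest at 82.3 ± 13.8 FPKM (SD, n = 3), above Ms4a4a at 57.3 ± 8.29 and Ms4a4c at 55.1 ± 8.36, which overlapped. Ms4a6b followed at 16.6 ± 2.45, Ms4a6d at 12.8 ± 1.25, Ms4a4b at 11.1 ± 3.42 and Ms4a7 at 3.36 ± 1.22. Ms4a4b overlapped with both Ms4a6d and Ms4a6b, and Ms4a7 with none of them. In CD36- NK the order by level was Ms4a6c (63.1 ± 23.3 FPKM), Ms4a4c (57.6 ± 15.0), Ms4a4b (50.4 ± 7.30), Ms4a4a (36.2 ± 14.7) and Ms4a6b (20.5 ± 3.80), and each of these overlapped with the next. Ms4a6d (10.4 ± 3.81) and Ms4a7 (0.829 ± 0.687) were below, each without overlap with the gene above it. Ms4a4b thus stood at rank 6 of 7 in CD36+ NK and at rank 3 of 7 in CD36- NK.

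This order depends on the length. The length behind the FPKM values was 10234 bases for Ms4a4b, where its longest protein-coding GENCODE M21 transcript has 4750 bases, and 8215 against 2680 bases for Ms4a6b. It was 836 bases by both for Ms4a4a. With the transcript lengths, an alternative chosen after seeing the data, Ms4a4b was the highest of the 7 genes in CD36- NK, at 109 on the same scale, and still overlapped with Ms4a6c at 79.4. In CD36+ NK it was at rank 5 of 7, at 23.9.

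Besides the 7 genes, the table holds 14 genes of the family in the same cluster on chromosome 19 and the related Tmem176a and Tmem176b on chromosome 6. Of these 16 genes, 8 had enough counts to be tested, 1 was called lower, 0 higher, and 7 were not called. Of the 8 that were not tested, 5 had no count in any library. The called gene was Ms4a15, which has been linked to resistance to ferroptosis. Its counts were low, at 1, 5 and 5 in CD36+ NK replicates 1 to 3 and 22, 18 and 16 in CD36- NK replicates 1 to 3, without overlap. The fitted log2 fold change was -2.41 (standard error 0.458, edgeR adjusted p = 0.0214).

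Ms4a14, the neighbour of Ms4a7 on the same strand, had a like pattern at a lower level, with 46, 111 and 103 counts in CD36+ NK replicates 1 to 3 and 7, 32 and 7 counts in CD36- NK replicates 1 to 3. Its log2 fold change of 2.36 was not called (standard error 0.620, edgeR adjusted p = 0.0555). In both genes replicate 2 was the highest of the CD36- NK libraries.

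Ms4a1, the CD20 gene, had 7777, 11410 and 9659 counts in CD36+ NK replicates 1 to 3 and 6636, 5801 and 4402 in CD36- NK replicates 1 to 3, more than each of the 7 genes except Ms4a4b in CD36- NK replicate 3. It was 1.61 times higher in CD36+ NK (log2 fold change 0.68, edgeR adjusted p = 0.0157), which is under the fold threshold, and 0 of 4 B cell markers were called (median log2 fold change 0.51). Ms4a2, the beta chain of the high-affinity IgE receptor, had 11 to 89 counts and a log2 fold change of -1.61 (edgeR adjusted p = 0.197). Tmem176a and Tmem176b, at log2 fold changes of -0.25 and -0.28, overlapped between the fractions.

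Of 6 genes for receptors and adaptors that work with MS4A proteins, 5 were tested and 0 were called. Tnfrsf18, which encodes GITR, was at 20.0 ± 2.49 CPM in CD36+ NK and 39.8 ± 3.35 CPM in CD36- NK (SD, n = 3 each), without overlap. Its log2 fold change, -0.995 (edgeR adjusted p = 0.00639), was just under the fold threshold. Clec7a, the dectin-1 gene, was 1.45 times higher in CD36+ NK (95% interval from 1.00 to 2.10, edgeR adjusted p = 0.187). Vsig4 was not tested, with 10, 181 and 6 counts in CD36+ NK replicates 1 to 3 and 0, 3 and 0 in CD36- NK replicates 1 to 3. Trem2, Tyrobp and Fcer1g had log2 fold changes of 0.02, -0.38 and 0.07.

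Marker genes of blood cell types give the scale for these changes. The 10 NK markers had a median log2 fold change of -2.48 and were all called lower, and Ms4a4b amounted to 10.1% to 14.9% of their summed CPM in the CD36+ libraries and 7.84% to 10.5% in the CD36- libraries, ranges that overlapped. Of 12 macrophage and Kupffer markers, 10 were tested, all 10 were higher and 3 were called, with a median of 2.89. The genes that define resident Kupffer cells did not agree on 1 library. Clec4f was at 0 in all CD36- NK libraries and in CD36+ NK replicate 3 and reached 624 counts in CD36+ NK replicate 2, whereas Timd4 was highest in CD36+ NK replicate 3 (284 counts) and had 15, 50 and 0 counts in CD36- NK replicates 1 to 3. The most counted macrophage markers, Lyz2 and Csf1r, had log2 fold changes of 0.09 and 1.89, and Csf1r was called. Of 9 monocyte markers, Treml4, Ace and Cd14 were called higher (log2 fold changes 2.84, 2.04 and 1.70) and only Ccr2 lower (-1.35). The other 5, Ly6c2, Chil3, Fn1, Plac8 and Cx3cr1, were between -1.14 and 0.51 and were not called, and the median of the list was 0.47.

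The 6 T cell markers had a median log2 fold change of 2.28, and Cd4 and Cd8a were called higher, but the direction of the other 4 rests on CD36+ NK replicate 1. Without it, Cd3d, Cd3e, Cd3g and Trac were lower in both remaining CD36+ NK libraries than in every CD36- NK library, and Cd4 and Cd8a higher. Relative to the summed CPM of the T cell markers, Ms4a4b was at 57.9% to 411% in the CD36+ libraries, lowest in replicate 1. In the CD36- libraries it was at 1691% to 2356%, so that, unlike for the NK markers, the ranges did not overlap. CD36+ NK replicate 1, the library with the high T cell markers, also had the highest Ms4a4b level of the CD36+ NK libraries. Without it the log2 fold change of Ms4a4b was -2.40 (edgeR adjusted p = 0.00195), and the part of T cells in its level was not tested. Dendritic cell markers were divided, with 2 of 6 called higher and 1 lower and a median of 0.41. Mast cell and basophil markers, 3 genes, had a median of -1.40 and none was called.

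**Figure D4:**
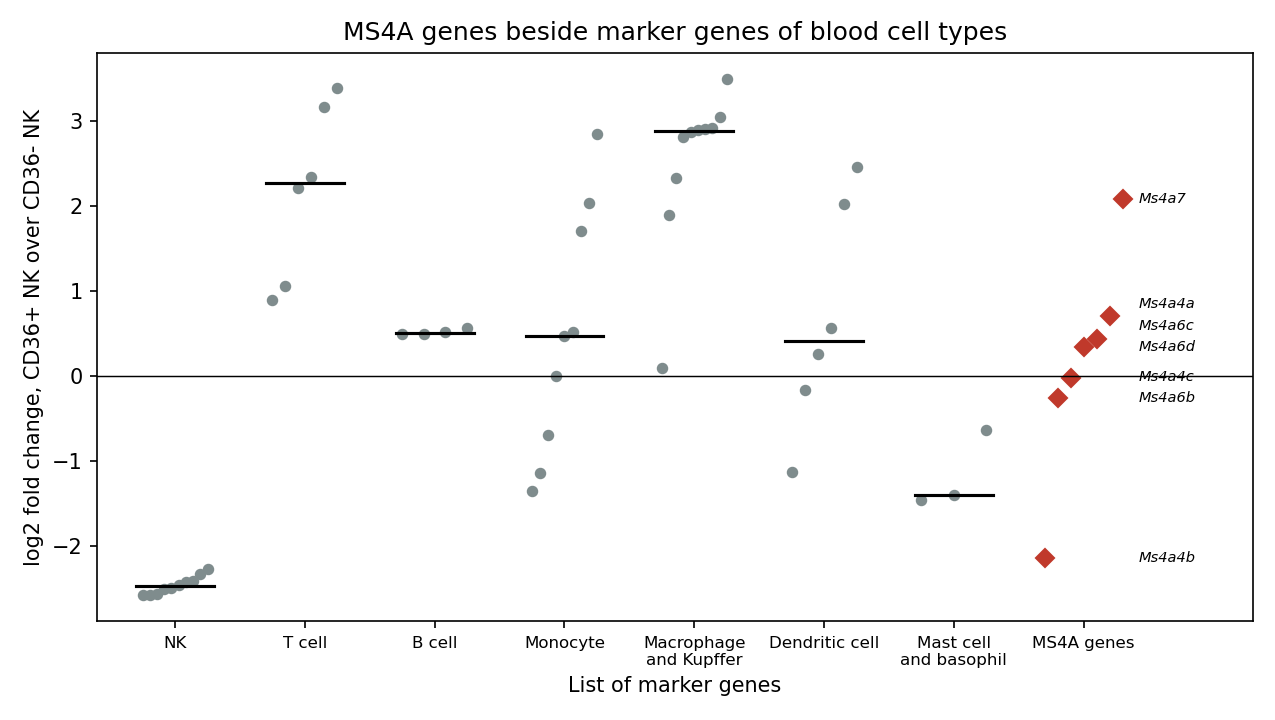
log2 fold changes (CD36+ NK over CD36- NK) of tested marker genes of 7 cell types (grey points, with a bar at the median of each list) beside the 7 MS4A genes (red diamonds, named). Ms4a4b, at -2.15, lies near the NK markers (median -2.48), and Ms4a7, at 2.09, is below the median of the macrophage and Kupffer markers (2.89).

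The genes most like Ms4a4b over the 6 libraries, by the root mean square difference of log2 CPM around each gene's own mean, were Gm43647 (difference 0.0487), Ctsw (0.0883) and Trdc (0.0979). Ctsw encodes cathepsin W, a protease of cytotoxic lymphocytes, and was at 71.7 CPM in CD36+ NK and 331 CPM in CD36- NK. Trdc encodes the constant region of the T cell receptor delta chain, and was at 9.11 and 46.2 CPM in the same order. Gm43647 was low, at 2.17 CPM in CD36+ NK and 10.6 CPM in CD36- NK, so its closeness rests on few counts. Ms4a7 had no neighbour as close. The nearest to it were Ajm1, Dst and Ubd, at differences of 0.212, 0.216 and 0.223. Of the other MS4A genes described here, Ms4a6b was nearest to Ms4a4b (0.990) and Ms4a4a to Ms4a7 (0.952).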

How the data were processed

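The authors filtered reads with Seqtk, mapped them with HISAT2 2.0.4 and counted fragments per gene with StringTie. They deposited raw counts and FPKM values in 1 table of 57180 genes. The submitters' processing notes name the rat assembly mRatBN7.2, although the gene identifiers are mouse, and the build of the table's coordinates is not given in the sources used here. The lines of 2 genes were broken and were rejoined. The authors computed the FPKM values from the counts, a gene length and the library total, which was checked on the 7439 genes with over 200 counts in every library.

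Columns were matched to samples by library name, and groups follow the titles. Genes were kept with edgeR's filterByExpr (minimum count 10), scaled by TMM and tested with the quasi-likelihood test without a block (edgeR 4.0.16, R 4.3.3), with Benjamini-Hochberg adjustment over 14761 genes. Standard errors were derived from the F statistic of each gene, and the 95% intervals use the t quantile of the fit. The fit was tested on simulated data. Ratios used a pseudocount of 0.5 and scipy 1.17.1. Promoters are RefSeq's. DESeq2 1.42.0 was an alternative. Total counts ran from 10292480 to 13787189, and p-values cover the spread between libraries. No pair of libraries within a fraction agreed within sampling noise (chi-square over its degrees of freedom at least 13.5).

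The members, gene lists and motifs were chosen with earlier results of these data known. Named genes are the 7 members, other family genes, 6 partner genes, the 3 genes of most like pattern to Ms4a4b and to Ms4a7, and, for a marker list given beside a result, its 2 most counted genes. Clec4f, Timd4 and the monocyte and T cell markers were named after their values were seen.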

Additional observations from a re-analysis of the deposited data

How the results depend on the processing

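The call of Ms4a4b held in all 12 alternative fits, and 0 of them called Ms4a4c, Ms4a6b, Ms4a6c or Ms4a6d. The number of the 7 genes called was 2 with DESeq2, 2 with the form of the library name as a batch term, and 1 to 3 over the fits that left out a library, where Ms4a7 and Ms4a4a were added without CD36- NK replicate 2. Calls over all genes, 880 in the reported fit, were also more in these fits, at 1143, 912 and 1160. The log2 fold change of Ms4a4c changed sign in 2 fits, and ran from -0.21 to 0.15 over the left-out libraries. With the replicate number as a replicate block, 560 of all genes were called instead of 880, and Ms4a4b remained called (log2 fold change -2.18, adjusted p = 0.0229). Same-numbered libraries had correlated deviations across genes of 0.310, 0.0515 and -0.0837, and 1 of the 3 CD36+ NK libraries, replicate 1, was closest to its own number, so the numbers were not taken as pairs. These numbers are those of the titles, and the library names number the CD36- NK libraries otherwise. All genes called were 1552 without a fold threshold and 417 to 1160 over the left-out libraries, with 417 and 431 when replicate 1 or 3 of CD36- NK was left out, and 418 and 451 when replicate 2 or 3 of CD36+ NK was. The even split of calls moved too, from 94 higher and 323 lower without replicate 1 of CD36- NK to 708 and 452 without replicate 2 of CD36- NK. Libraries of replicate 1 have names of another form. Within this form (1 against 1) the log2 differences were -1.55 for Ms4a4b and 2.87 for Ms4a7, and within the other (2 against 2) -2.48 and 1.84. The 6 ratios kept their direction with each library left out. FPKM values and pairing cannot turn them by construction. Without Lyz2 in the macrophage list, the log2 ratio of the mean Ms4a7 share in CD36+ NK over that in CD36- NK was -0.28 instead of 1.14. Ms4a7 had 18 to 97 counts in the CD36- NK libraries.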
